A study of Mus musculus with 2 samples.

Results

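The genes described here are 10 transcripts that fibroblast growth factor (FGF) signalling switches on and that either restrain the pathway or read it out: Spry1, Spry2, Spry4, Spred1, Spred3, Il17rd, Dusp6, Etv4, Etv5 and Cnpy1. They were chosen by symbol, with their signals in these arrays already known, and all probe sets annotated to them were taken. This gave 27 probe sets for 10 of the 18193 genes named on the array. Because the same contrast guided the choice, the differences between the arrays are given as a description and support nothing beyond themselves. The samples were total RNA from brain of C57BL/6 mouse embryos at stage E10.5, when the neural tube is being divided into regions, with 1 sample labelled KO (knockout) and 1 labelled WT (wild type), each on 1 Affymetrix 3' expression array. The tissue label says brain, while the titles and the growth protocol speak of embryos, so how the tissue was taken is not settled by the labels. They also do not say which gene was deleted, in which cells, or how many embryos were pooled. With 1 array per group there is no replicate error, no test between the groups was possible, and each difference is a difference between these 2 arrays.

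FGF ligands bind receptor tyrosine kinases at the cell surface and activate the RAS, RAF, MEK and ERK kinase cascade. ERK then induces its own brakes, among them Sprouty and Spred proteins, the membrane protein Sef and the phosphatase Dusp6, and it relieves repression by Capicua, a DNA-binding repressor whose known targets include the PEA3-group ETS factors Etv4 and Etv5. In the embryonic brain these feedback genes mark tissue near FGF sources, chiefly the isthmus at the midbrain-hindbrain junction and the anterior end of the forebrain.

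Promoter sequence was read for the members because they differed between the arrays in the same direction. RefSeq windows of 300 bases (250 before and 50 after the transcription start, build GRCm38.p6) were at hand for 8 of the 10 genes, in 10 windows, and not for Spry4 and Etv4. Capicua letters, TGAATGAA, TGAATGGA, TCAATGAA or TCAATGGA on either strand, were in the windows of 3 of the 8 genes, against 4.45% of the 27025 genes with a window. The stretches below are shown because they carry these letters, which are in capitals. Positions are counted from the transcription start, with the first transcribed base as 1 and the base before it as -1.
Dusp6, chr10:99263131-99263242, plus strand: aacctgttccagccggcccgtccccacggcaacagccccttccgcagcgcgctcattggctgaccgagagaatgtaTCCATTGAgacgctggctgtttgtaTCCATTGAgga
Spry2, chr14:105896820-105896929, minus strand: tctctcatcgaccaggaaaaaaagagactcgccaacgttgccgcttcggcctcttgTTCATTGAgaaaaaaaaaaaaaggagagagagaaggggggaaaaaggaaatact
Spred3, chr7:29168648-29168757, minus strand: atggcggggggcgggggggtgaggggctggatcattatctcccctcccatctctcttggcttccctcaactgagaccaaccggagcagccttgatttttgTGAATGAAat

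Dusp6 held the letters at 2 places, starting at positions -24 and 2, both as the reverse complement of TCAATGGA. Spry2 held the reverse complement of TCAATGAA at position -54, and Spred3 held TGAATGAA at position -10. The start used for Spred3 does not match the outer edge of the annotated gene, nor do those of Il17rd and of 1 window each of Cnpy1 and Etv5. The shorter ETS letters CCGGAA were in the windows of Spry2 (position 34) and Cnpy1 (position 19), which makes 2 of 8 genes against 16.7% of all genes. The longer form CCGGAAGT, which contains the shorter one, was in none of the 8, against 4.31% of all genes, and TATAAA was in none, against 15.7%. The member windows had a median of 61.3% G and C (range 53 to 74.0), against 52.7% over all 32851 windows. A match of letters is a description and not evidence of binding.

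The deposited signals are linear intensities on a common scale, with medians of 13.2 in both arrays. Differences are KO minus WT of log2(signal + 16), where the added 16 damps noise near background and understates the change of dim genes. Where a gene has several probe sets, the one with the highest mean stands for it. The level filter kept genes whose brighter array reached a signal of 41.6, the median level of the named genes. Of 9294 genes that passed, 22 (0.237%) were above WT by 2-fold or more and 8 (0.0861%) below WT by as much. The sex-linked transcripts separate the arrays as the labels do, with Xist at 2023 in KO and 5.19 in WT, and Eif2s3y at 0.27 in KO and 254 in WT. Genotype and embryo sex cannot be told apart here.

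All 10 members read higher in the KO array, where 50.3% of all named genes were higher and 49.7% lower by any size. Differences ran from 0.47 (Spred1) to 1.55 (Il17rd), with a median of 0.94, beside a median of 0.0011 over all named genes. Of the 8 members that passed the level filter, 3 were at least 2-fold higher on this scale, Il17rd, Spry1 and Spry2, and none was lower. At 1.5-fold the count was 7, beside 77 of all passing genes (0.828%), and 0 members were 1.5-fold lower, beside 55 of all passing genes (0.592%). Spred3, which is in the count of 7, passed the filter only through the KO array. The 2-fold count was 5 when signals were floored at 16 in place of the added constant. It was 1 when the median probe set stood for each gene. That probe set was the median by difference, and the lower middle one where a gene has an even number. For a pair of probe sets it was therefore the lower difference, as in Spry2 and Il17rd, which the count of 1 leaves out. Since these genes were picked with their difference in view, the counts cannot be read against that background. In RNA from a mixture of cells, more cells of a kind and more RNA per cell cannot be told apart.

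**Figure D1:**
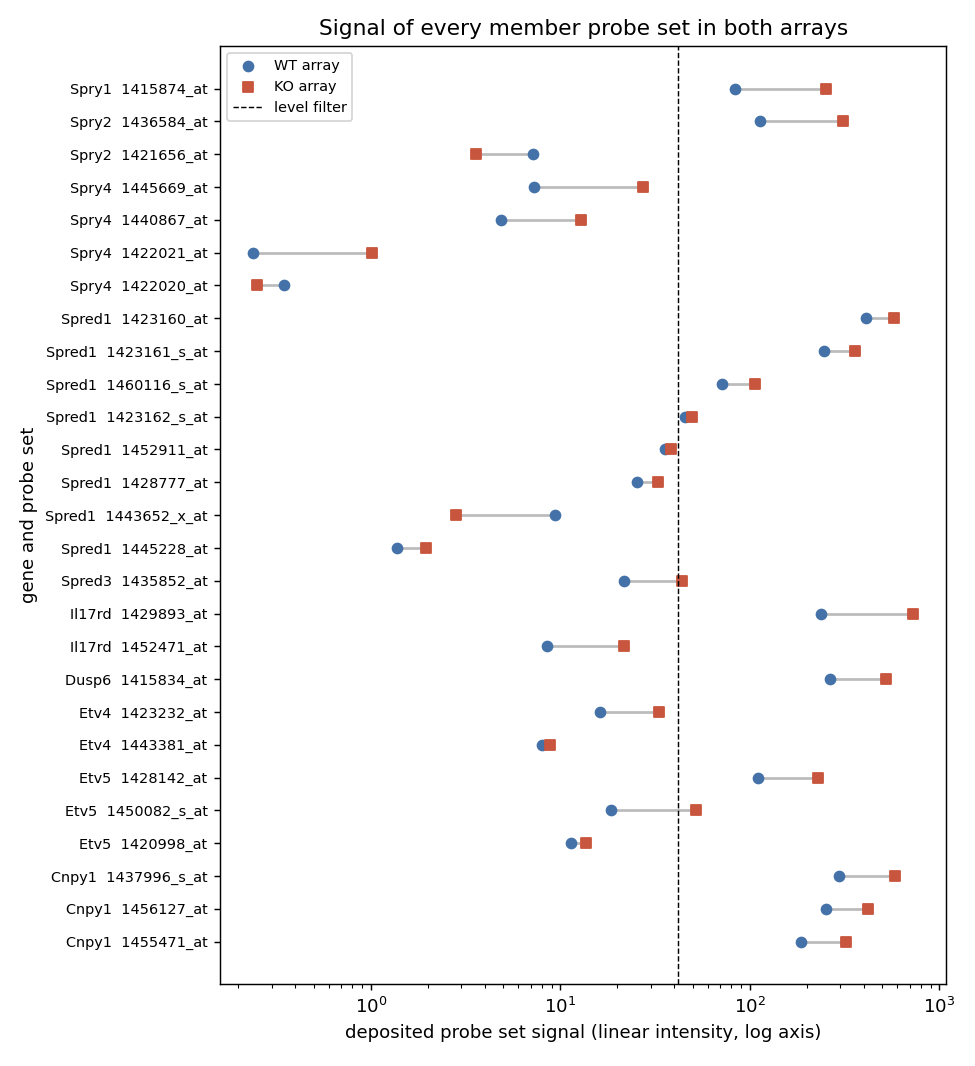
Deposited signal (linear intensity on a log axis) of all 27 probe sets of the 10 genes in the WT array (circles) and the KO array (squares), with the level filter of 41.6 as a dashed line. All 14 probe sets that reach the filter lie further right in KO, and the 3 that lie further left in KO are under 10 in both arrays. Of the 14, Spred3 1435852_at and Etv5 1450082_s_at reach the filter in the KO array only, which fixed their direction.

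The Sprouty genes encode membrane-anchored proteins that block the step from the activated receptor to RAS and RAF. Spry1 read 253 in KO and 83.4 in WT on its single probe set, a 3.03-fold ratio of the signals and a difference of 1.43 log2 units. Spry2 read 308 in KO and 113 in WT on probe set 1436584_at, a ratio of 2.73 and a difference of 1.33. These were the 2 clearest of the family, with the WT signal of each well over the level filter.

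The second Spry2 probe set, 1421656_at, read 3.61 in KO and 7.16 in WT, so its direction was opposite at signals close to background. Spry4 was dim on all 4 of its probe sets and did not pass the filter. The brightest, 1445669_at, read 27.3 in KO and 7.30 in WT, which is the widest ratio among the genes' representative probe sets (3.74) but a difference of only 0.89. The next, 1440867_at, read 12.8 in KO and 4.87 in WT (0.47). The remaining pair read at most 1.01 in either array and carried no usable signal. Spry3, the remaining Sprouty gene, was also dim at 12.2 in KO and 7.77 in WT (0.25).

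Spred proteins share the Sprouty domain and hold RAS in check through neurofibromin, the RAS GTPase-activating protein encoded by Nf1. Spred1 read 578 in KO and 412 in WT on its brightest probe set, a ratio of 1.40 and a difference of 0.47, the smallest of the 10 genes. Its other probe sets above the filter read 358 against 246 (0.51), 106 against 71.1 (0.49) and 49.4 against 45.3 (0.092), KO first. So 3 of these 4 showed a like difference, and the dimmest of them showed little.

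The 4 Spred1 probe sets below the filter ranged from -0.43 to 0.24. Spred3 has 1 probe set, which read 43.9 in KO and 21.7 in WT, a ratio of 2.02 and a difference of 0.66, and it passed the filter only through the KO array. Spred2, the third gene of the family, read 405 in KO and 365 in WT (0.14) on its brightest probe set. Its 4 other probe sets did not reach the filter and differed by -0.023 to 0.084.

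Il17rd encodes Sef, a transmembrane protein that binds FGF receptors and dampens ERK signalling. It read 729 in KO and 239 in WT on probe set 1429893_at, a ratio of 3.05 and a difference of 1.55, the largest of the 10 genes on this scale. Its difference was 1.08 with probe sets averaged and 0.62 with the median probe set, here the lower of a pair. Both were under the 1.43 of Spry1. None of the other 2322 genes of its brightness class was as far up, while its rank among all passing genes was 10. For these classes the passing genes were divided by mean level into 4 of like size. Such ranks, here and below, use the difference that was in view when the members were picked, so they are description only. A second probe set, 1452471_at, was dim and read 21.7 in KO and 8.54 in WT (0.62), so both probe sets pointed the same way.

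Dusp6 encodes a cytoplasmic phosphatase that removes the activating phosphates from ERK. It read 520 in KO and 264 in WT, a ratio of 1.97 and a difference of 0.94, on its single probe set. In its brightness class 3 of the other 2322 genes were at least as high, and these include the members Il17rd and Cnpy1. Of the related phosphatase genes, Dusp4 read 177 in KO and 138 in WT (0.33), and Dusp7 read 58.9 in KO and 77.7 in WT (-0.32). Dusp9 read 88.1 in KO and 80.6 in WT (0.11), with its other probe sets at 0.31 and 0.21. These 3 phosphatase genes stayed well under the difference of Dusp6 and did not share a direction.

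Etv4 and Etv5 encode ETS transcription factors that carry the ERK signal to target genes. Etv5 read 230.0 in KO and 110.0 in WT on probe set 1428142_at, a ratio of 2.09 and a difference of 0.96. A second probe set, 1450082_s_at, read 52.2 in KO and 18.4 in WT (0.98), and the third, at 13.6 and 11.4, differed by 0.11. Of these, 1428142_at was above the filter in both arrays and 1450082_s_at reached it in the KO array only.

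Etv4 was dim, with 33.0 in KO and 16.2 in WT on its brighter probe set, a ratio of 2.04 and a difference of 0.61. Its other probe set read 8.81 in KO and 7.97 in WT (0.049). The gene did not pass the filter, and 71 of the other 8898 genes below it were at least as high.

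Cnpy1 encodes a canopy-family protein of the secretory pathway, which in zebrafish supports FGF receptor function at the midbrain-hindbrain boundary. All 3 of its probe sets were above the filter in both arrays. The brightest read 584 in KO and 297 in WT (0.94), the next 422 in KO and 253 in WT (0.70), and the last 321 in KO and 187 in WT (0.73). All 3 thus read higher in KO at signals well over background. The other canopy genes differed little on their representative probe sets, with Cnpy2 at -0.018, Cnpy3 at 0.062 and Cnpy4 at -0.029. A dim probe set of Cnpy2 read 9.31 in KO and 39.0 in WT.

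**Figure D2:**
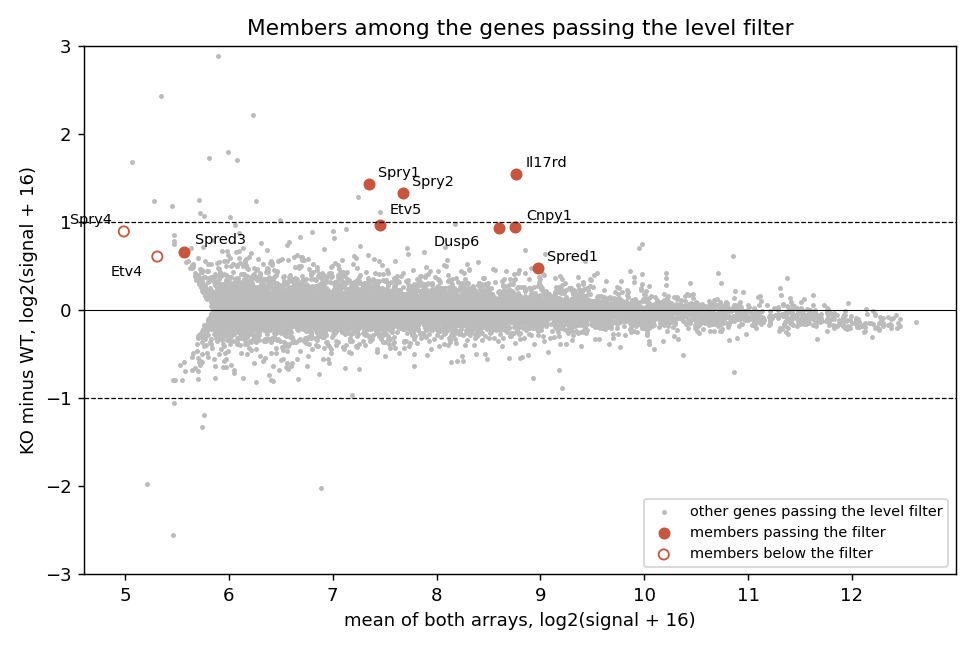
KO minus WT difference of log2(signal + 16) against the mean of both arrays, for each gene passing the level filter (grey) and the 10 members (red, open where below the filter). Il17rd, Spry1 and Spry2 lie above the upper dashed line of 2-fold, and Etv5, Cnpy1 and Dusp6 lie just under it at 0.96, 0.94 and 0.94; 4 grey genes differ by more than 3 and are off the axis.

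The size of the differences among the members depended on the scale. As ratios of the signals with nothing added, Spry4, Il17rd, Spry1 and Spry2 stood at 3.74, 3.05, 3.03 and 2.73, and Etv5, Etv4, Spred3, Dusp6 and Cnpy1 were bunched between 2.09 and 1.97. Spred1 alone was lower, at 1.40. On the log2 scale with 16 added, dim Etv4 (0.61) and Spred3 (0.66) fell behind Dusp6 (0.94) although their ratios were nearly the same. Differences between probe sets of a gene had an SD of 0.17 log2 units over 3627 genes, which is probe noise and not the spread between animals. Only probe sets that reach the filter entered this SD, so it does not measure the noise of dimmer ones. The gap between Etv5, Cnpy1 and Dusp6 was smaller than that noise. Of the 27 probe sets 24 read higher in KO, and the 3 exceptions (1 each of Spry2, Spry4 and Spred1) were below the filter.

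**Figure D3:**
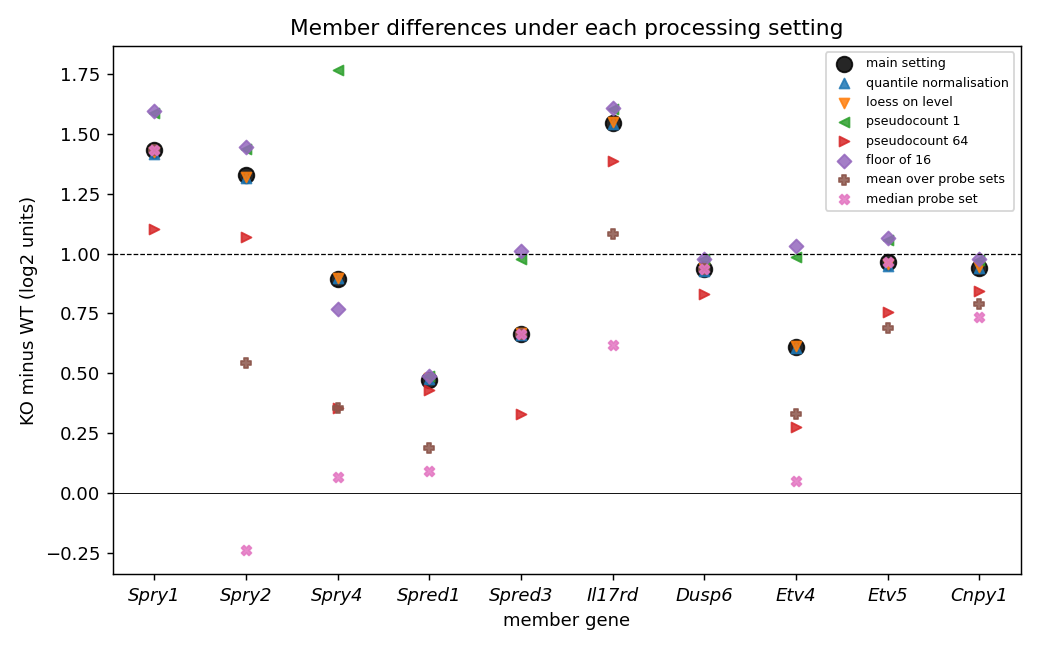
KO minus WT difference in log2 units of each member under the main setting (large black circles) and 7 alternatives for scaling, added constant, floor and choice of probe set. Values of Dusp6 and Cnpy1 stay within 0.83 to 0.98 and 0.73 to 0.98, while Spry2 runs from -0.24, where its dim probe set stands for it, to 1.45, and Spry4 from 0.067 to 1.77.

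The other genes of the pathway, from the ligand to the nucleus, mostly differed little. Of 104 measured pathway genes outside the members, 68 passed the filter, and 44 of the 68 lay within 0.2 log2 units of equality. Of the 68, 3 were 2-fold or more above WT and 0 were 2-fold below, beside 22 of all 9294 passing genes (0.237%) above. The lists were chosen with earlier results known, so the 3 cannot be read against that share. The 3 were ligand genes that the isthmus expresses, and each passed the filter only through the KO array. Fgf17 read 146 in KO and 18.8 in WT (2.22), Fgf8 read 103 in KO and 18.2 in WT (1.80), and Fgf18 read 62.6 in KO and 21.4 in WT (1.07). Over all 22 ligand genes the median was 0.024, and 5 passed the filter. The other two that did, named after their values were seen, were Fgf15 (0.43) and Fgf13 (-0.024), of which Fgf13 encodes an intracellular FGF-like protein that does not act on FGF receptors.

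Receptors and co-receptors had a median of 0.052 over 16 genes, with 13 above the filter and none 1.5-fold apart. Fgfr3, a receptor gene, read 264 in KO and 378 in WT (-0.49). Flrt1 and Flrt2, which encode membrane proteins able to bind FGF receptors, differed by 0.48 and 0.30. Adaptors and kinases of the cascade had a median of 0.024 over 15 genes, with Shc1 at 0.37, Gab1 at 0.23 and Ptpn11 at -0.19 the largest above the filter. None of these 15 was 1.5-fold apart either.

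Restraints of the pathway other than the members had a median of 0.10 over 19 genes, and none was 1.5-fold apart. The largest above the filter were the phosphatase genes Dusp1 (0.34), Dusp4 (0.33) and Dusp7 (-0.32). Other ETS factors, with Capicua and its partners, had a median of 0.034 over 18 genes, and the largest above the filter were Fli1 (0.26), Elf2 (-0.22) and Gabpa (0.20). Cic, the gene of Capicua itself, read 138 in KO and 128 in WT (0.097).

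Other transcripts known to follow ERK activity in many cell types went both ways. Their median was 0.16 over 12 genes, of which 8 passed the filter. Epha4, an ephrin receptor gene, was lower at 105 in KO and 177 in WT (-0.67). Egr1, an immediate early gene, read 57.2 in KO and 40.2 in WT (0.38), and Myc read 80.5 in KO and 60.1 in WT (0.34). No readout in this list reached the 0.94 median of the members.

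**Figure D4:**
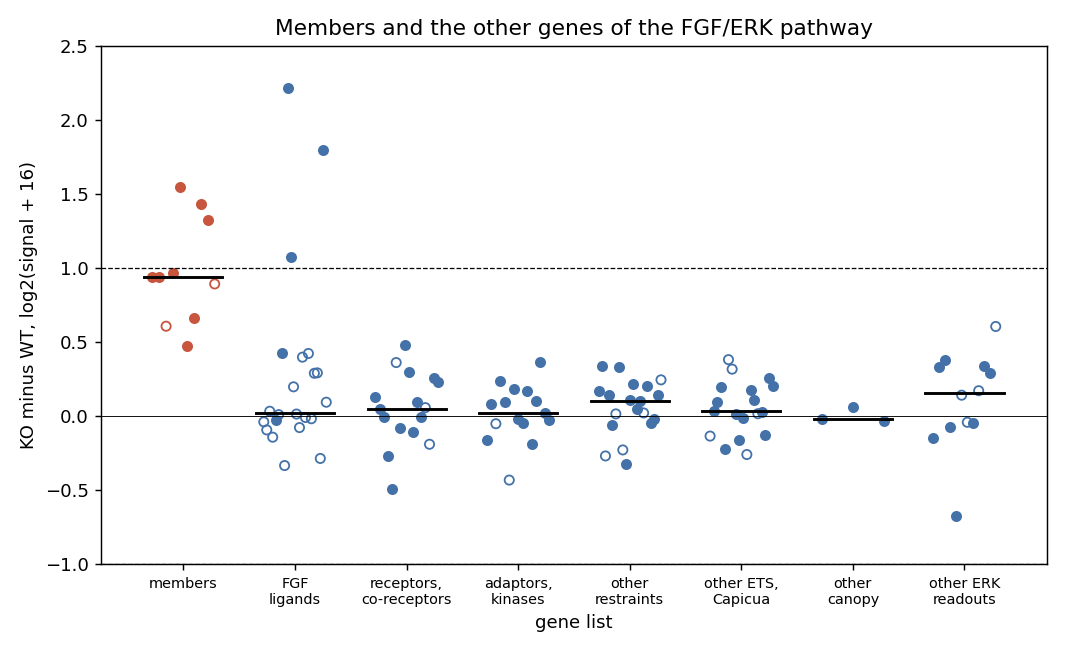
KO minus WT difference of log2(signal + 16) for the members (red) and 7 lists of other pathway genes (blue), with filled points for genes passing the level filter, open points for genes below it, and a bar at each median. The members have a median of 0.94 and the other lists have medians between -0.018 and 0.16, with Fgf17, Fgf8 and Fgf18 far above the rest of the ligands.

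Isthmus markers moved with the members, and forebrain markers did not. All 11 measured isthmus genes read higher in KO, with a median of 1.07 and a summed signal of 1960 in KO and 963 in WT. En2 made up most of that sum, at 1291 in KO and 761 in WT (0.75). They include Fgf8, Fgf17 and Fgf18, together with En1 (1.10), Pax8 (1.24) and Sp8 (1.24). These 6 were the isthmus genes at least 2-fold higher, and each passed the filter only through the KO array, which fixed their direction. Pax5, Gbx2 and Wnt1 did not pass the filter. Only En2 and Lmx1b (0.50) were above it in both arrays. Forebrain markers leaned the other way, with 5 of 7 lower, a median of -0.27 and a summed signal of 2518 in KO and 3174 in WT. Most of that sum was Otx2, at 1820 in KO and 2203 in WT. The 2 that were not lower, Six3 (0.061) and Emx2 (0.054), were near background in both arrays. Hindbrain markers were near background, with 0 of 6 above the filter and sums of 21.7 in KO and 14.5 in WT. The part of the isthmus or forebrain share of the tissue in the members' differences was not tested.

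Markers of brain cells were bright in both arrays, as the tissue label says. All 9 neural progenitor markers passed the filter, with sums of 11613 in KO and 12795 in WT and a median difference of -0.15. The 8 neuron markers summed to 4584 in KO and 5104 in WT, with a median of -0.14. None of the 7 branchial arch markers passed the filter, and they summed to 21.7 in KO and 32.8 in WT. Head mesenchyme genes were clearly present, with 7 of 7 above the filter, sums of 2624 in KO and 2596 in WT and a median of 0.23. Surface ectoderm genes summed to 228 in KO and 191 in WT, with a median of 0.15 and 4 of 6 above the filter. Endothelial genes summed to 425 in KO and 466 in WT (median -0.12), and red cell genes to 13658 in KO and 15324 in WT (median 0.082). All 9 macrophage markers were lower in KO, with a median of -0.96 and sums of 156 in KO and 476 in WT. Of the 9, 3 passed the filter. The 2 of these that were at least 2-fold lower passed only through the WT array, which fixed their direction. The part of these cell types in the members' differences was not tested.

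**Figure D5:**
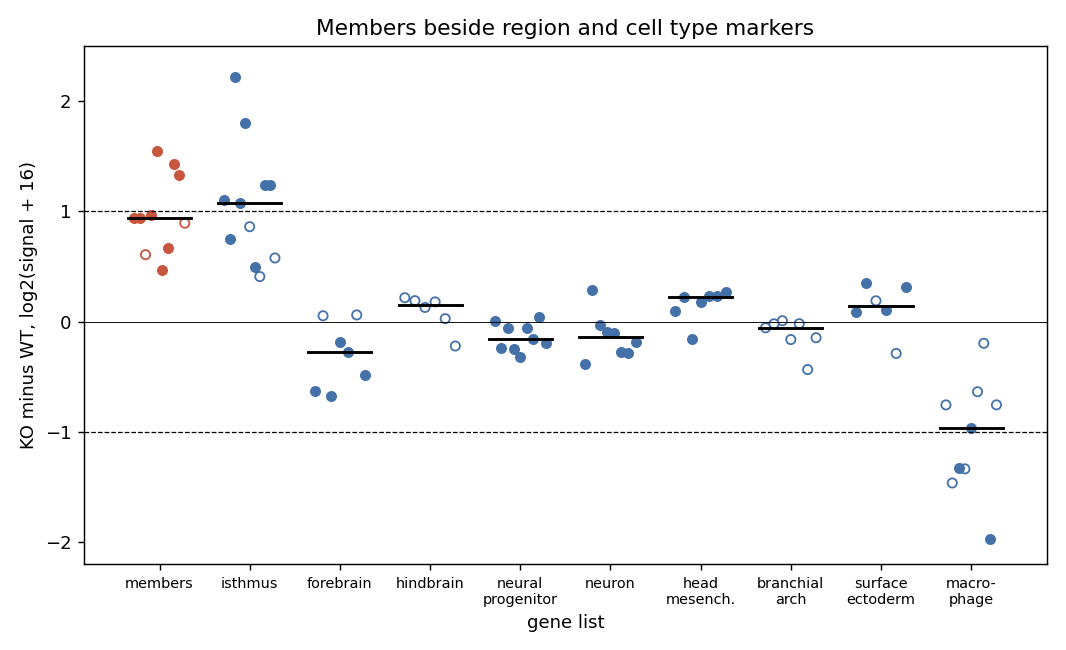
KO minus WT difference of log2(signal + 16) for the members (red) and 9 lists of region and cell type markers (blue), filled where the gene passes the level filter and open where it does not, with a bar at each median; red cell and endothelial genes are not drawn. Among the lists drawn, the isthmus list (median 1.07) has the median nearest to that of the members, and the macrophage list (median -0.96) lies farthest below.

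The members lie on 9 chromosomes. Of their 20 nearest measured neighbours, 9 passed the filter, and 8 of these 9 lay between -0.16 and 0.17. The remaining one was En2, a homeobox gene of the midbrain-hindbrain region that lies next to Cnpy1 on chromosome 5, with 28.6 kb between the gene bodies. En2 read 1291 in KO and 761 in WT (0.75). Rbm33, on the other side of Cnpy1, read 246 in KO and 261 in WT (-0.081). Slitrk1, the nearest measured gene on one side of Spry2 but 3013 kb away, read 40.5 in KO and 18.2 in WT (0.72), just under the filter. Spry2 and Il17rd share chromosome 14 but are not neighbours.

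With 2 arrays a pattern is a single difference, so likeness to the members can be given only as closeness to their median of 0.94. The 6 nearest genes above the filter were Foxo3 (0.92), Zfp423 (0.91), Plac8 (0.97), Ddias (0.90), Pop4 (0.98) and Irs4 (0.89). Foxo3 encodes a forkhead transcription factor, Zfp423 a zinc finger factor and Pop4 a subunit of RNase P. None of them is in the pathway lists.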

How the data were processed

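Signals of 2 arrays, 1 KO and 1 WT, were analysed. The authors deposited linear probe set intensity values made with Affymetrix Expression Console, per the submitters' processing notes; the summary algorithm is not given in the sources used here. Trimmed means (2% off each end) were 100.0 in both arrays, so they share a global scale. Of 45101 probe sets, 34945 had 1 gene symbol in the platform annotation, 932 several, 9160 none and 64 were controls. Only those with 1 symbol were used. Arrays were set to 1 median (ratio 1.001 before) and taken as log2(intensity + 16).

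No test was possible with 1 array per group, and the number of arrays limits the precision. The members and all lists were chosen with earlier results of these data known. Beside members, the text names in each pathway list genes 2-fold apart and the 3 largest differences above the filter, isthmus, sex-linked and canopy genes, the nearest neighbours and the 6 genes nearest the members' median. Spry3, Spred2, Nf1, Dusp9 and Cic were named for their family or role, after their values were seen. Otx2, Six3 and Emx2 were also named after their values were seen. Of 18193 named genes, 18142 were found by symbol in the RefSeq table of GRCm38.p6, used for neighbours. The protein comparison planned was not run. The differences and the 2-fold count were tried on simulated data with 1 probe set per gene. Unchanged genes were held under the threshold there, so neither false calls nor the choice of probe set was tested. Alternatives covered scaling (quantile, loess with span 0.3), the added constant (1, 64), a floor of 16, the probe set rule, the threshold and the filter. Python 3.11.15 was used with matplotlib 3.10.9, statsmodels 0.14.6, scipy 1.17.1, pandas 2.3.3 and numpy 2.4.6.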

Additional observations from a re-analysis of the deposited data

How the results depend on the processing

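No paired analysis was possible because the KO and the WT arm have 1 array apiece, which also leaves nothing to leave out in turn. Quantile normalisation and loess moved no count, median or member difference by more than probe noise. Spry2 turned to -0.24 with the median probe set; the other 9 members stayed above 0 under all 7 settings that gave them a value. With that probe set, however, Etv4 (0.049), Spry4 (0.067) and Spred1 (0.092) were under 0.17, and Il17rd was 0.62. With probe sets averaged, Spry2 was 0.54, Spry4 0.35, Etv4 0.33 and Spred1 0.19. With 64 added, Spry4 was 0.36, Spred3 0.33 and Etv4 0.28, and with 1 added Spry4 was 1.77 and Etv4 0.99. With the floor, Etv4 was 1.03 and Spred3 1.01. The median of the members was 0.68 when probe sets were averaged and 0.64 when the median one was taken, and that of the isthmus genes 0.86 with either, 1.55 with 1 added, 0.57 with 64 added and 1.45 with a floor of 16. Members at least 2-fold higher numbered 5 with the floor, 1 with the median probe set and 7 at 1.5-fold. All genes at least 2-fold higher and lower numbered 36 and 16 with 1 added, 9 and 4 with 64 added, 39 and 20 with the floor, 77 and 55 at 1.5-fold, and 7 and 2 with a 75th percentile filter. Lower genes alone numbered 15 with the median probe set and 13 with no filter. A change was counted as such beyond 1.5 times for counts and beyond 0.17 log2 units, the SD between probe sets of a gene, for differences. That SD was taken over probe sets that reach the filter, and was not measured for dimmer ones such as those of Spry4 and Etv4. By construction a larger constant shrinks dim genes most, and the median probe set can be a dim one. The median was taken by difference, as the lower middle probe set where a gene has an even number. For Spry2, Il17rd and Etv4, with a pair of probe sets each, it was thus the lower difference. Signals under the filter limit what can be said of Spry4 and Etv4.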
